A study of Homo sapiens with 8 samples.

Results

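The cytochrome P450 (CYP) genes were followed in ESO26 cells after knockdown of the transcription factor HNF4A. They were taken as every symbol of the expression table that is made of CYP, a family number, a subfamily letter and a gene number, which leaves out pseudogenes and antisense transcripts. This gave 46 of 30755 symbols. The rule reads the symbol alone. ESO26 is an established line from an oesophageal adenocarcinoma. The RNA-seq consists of 2 libraries from cells with siRNA against HNF4A and 2 from control cells, all grown in the same serum-containing medium. The labels do not give the siRNA sequence or dose, the time after transfection, or what the control cells received. The text of the series speaks of more replicates than the 2 libraries per group used here.

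P450 enzymes are haem proteins that insert 1 atom of molecular oxygen into their substrates. Those of the endoplasmic reticulum draw electrons from the flavoprotein POR and in part from cytochrome b5, and those of mitochondria draw them from a ferredoxin. Some oxidise drugs and other foreign compounds, and others make or break down sterols, bile acids, steroid hormones, vitamin D, retinoic acid and fatty acid signals. HNF4A is a nuclear receptor of liver and gut epithelium, and in liver it is known as a regulator of many P450 genes.

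The normalized counts summed to between 17912507 and 18613685 per library. HNF4A itself stood at 25.7% of the control mean in the knockdown libraries, which is -1.97 on the log2 scale (standard error, SE, 0.095; adjusted p = 1.59e-05, limma). The knockdown libraries had fewer genes listed at 0 (4260 and 4362) than the control libraries (5479 and 5640). All 10 markers of columnar epithelium were measured high enough to be tested, and 6 of them (60%) were called, 3 higher and 3 lower, against 14.1% of all 15577 tested genes. Hepatocyte markers were low, and the 9 such genes in the table summed to between 94.4 and 122 per library. ALB was listed at 0 in both control libraries and at 1.50 and 1.10 in the knockdown libraries. AHSG went the other way, from 2.45 and 2.22 in control to 0 in both knockdown libraries. Of the 2 hepatocyte markers tested, 1 lay above 0 in log2 fold change and CPS1 lay below (-1.77), and 0 were called. The squamous keratin KRT6A was listed at 0 in all 4 libraries, while KRT14 read 0.64 and 2.29 in control and 12.2 and 25.7 after knockdown and was called higher (3.02 on the log2 scale, adjusted p = 0.0185, limma). KRT5 went the other way, from 32.6 and 12.1 to 6.14 and 10.5, without being called, and the squamous list summed to 54.7 and 36.0 in control and to 44.9 and 73.2 after knockdown. The endothelial gene VWF read 8.55 and 6.68 in control and 47.5 and 36.4 after knockdown. It was called higher (2.31, adjusted p = 0.0054, limma). The endothelial list had 2 genes with values, VWF and CDH5, and their sum went from 24.6 and 15.2 to 64.0 and 47.2. CDH5 overlapped between groups and was not called (0.17, adjusted p = 0.861, limma), so most of this rise was VWF. KRT14 and VWF passed the filter at a mean of 10 only through the knockdown libraries, where they are high, so these 2 calls are given as a description. Fibroblast markers summed to 217 and 139 in control and to 246 and 251 after knockdown, and leukocyte markers to 156 and 138 against 98.7 and 142, with PTPRC between 0 and 2.05. Their part in the P450 results was not tested. In RNA from a whole culture, fewer cells with a transcript and less of it per cell cannot be told apart.

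Of the 46 P450 genes, CYP7A1 was listed at 0 in all 4 libraries, 19 had a mean under 10 normalized counts, and 26 were tested. After HNF4A knockdown 3 of them rose (CYP2W1, CYP4X1 and CYP1B1) and 1 fell (CYP27A1). These 4 calls are 15.4% of the tested P450 genes, against 14.1% of all 15577 tested genes. By direction, 6.02% of all tested genes were called higher and 8.11% lower. The P450 share is thus close to that of the transcriptome as a whole. The 2 knockdown libraries lay on one side of both control libraries for 17 of the 26 P450 genes (65.4%), against 57.0% of all tested genes, with 7 apart upward and 10 apart downward. Over all tested genes, 26.9% were apart upward and 30.1% apart downward. The median log2 fold change of the tested P450 genes was 0.058, with a median absolute change of 0.33. Over all tested genes these medians were -0.0073 and 0.20. The sign of the P450 median was not stable. Leaving out 1 library gave values from -0.082 to 0.031, below 0 without either control library or the second knockdown library, and a filter at a mean of 50 gave -0.043. P450 fold changes ran from -0.93 to 1.22, with 14 above and 12 below 0.

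**Figure D1:**
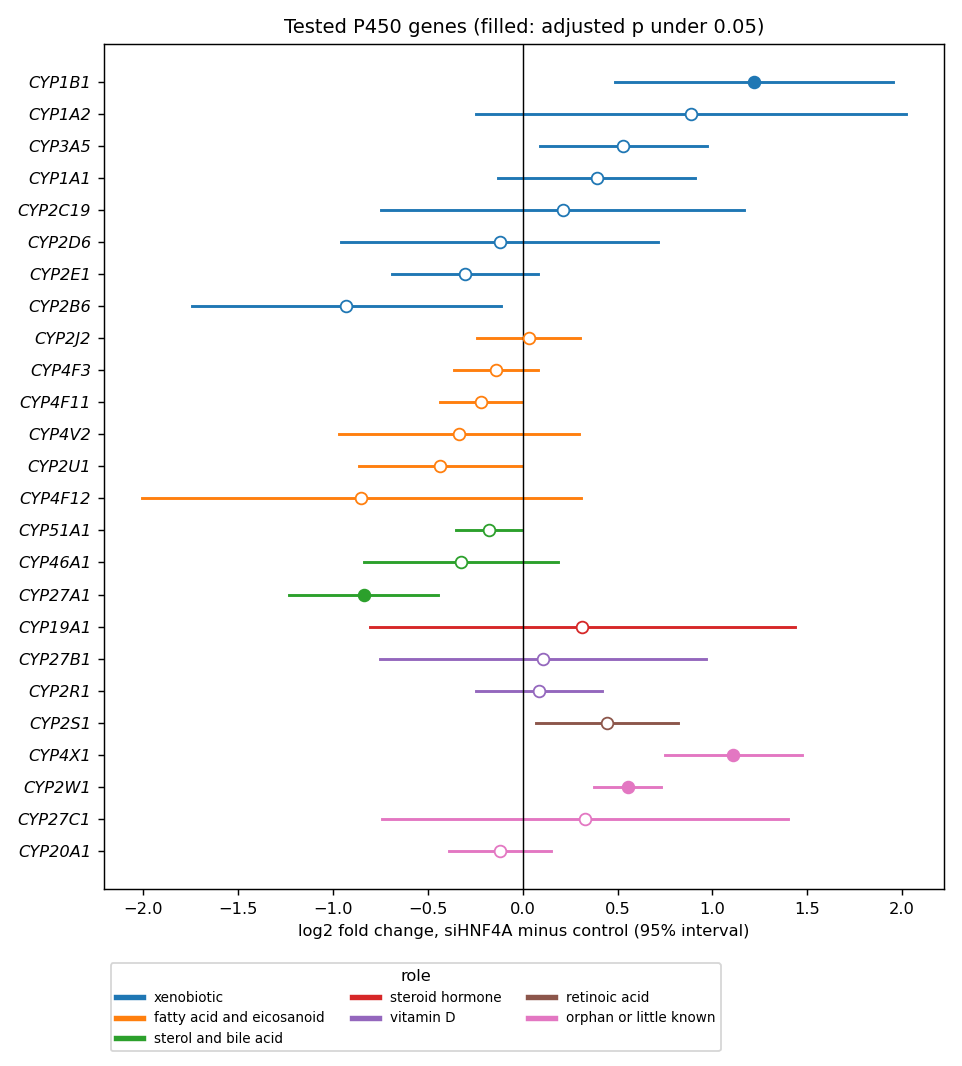
Log2 fold change (knockdown minus control) of the tested P450 genes whose single values are reported, with its 95% interval from limma, coloured by role; filled points passed an adjusted p of 0.05. The 4 filled points are CYP1B1, CYP4X1 and CYP2W1 to the right of 0 and CYP27A1 to the left.

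The P450 gene with the smallest p was CYP2W1, an orphan enzyme known from fetal gut and from colorectal tumours. It read 2499 and 2342 normalized counts in the control libraries and 3796 and 3324 in the knockdown libraries. Both knockdown values lay above both control values, and the ratio of the means was 1.47. On the log2 scale this is a change of 0.55 (SE 0.079, adjusted p = 0.0019, limma; 95% interval 0.38 to 0.73). CYP2W1 lies on chromosome 7 and overlaps CHLSN in RefSeq, listed in the table under its older symbol C7orf50. C7orf50 read 1206 and 1367 in control and 1467 and 1455 after knockdown, a log2 fold change of 0.19 that was not called (adjusted p = 0.183, limma). Whether the counting used strand is not given, so reads of overlapping genes on opposite strands may not have been separated. The tested neighbours COX19 and GPR146 were not called either, at -0.20 and 0.35.

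CYP4X1, a fatty acid hydroxylase relative whose physiological substrate is not settled, read 134 and 132 in control and 319.9 and 259.6 after knockdown. The control libraries were nearly equal and the knockdown mean was 2.18 times theirs. On the log2 scale this is a change of 1.11 (SE 0.16, adjusted p = 0.0022, limma; 95% interval 0.75 to 1.47). CYP4X1 belongs to a row of CYP4 genes on chromosome 1. In RefSeq it overlaps pseudogenes of the CYP4A subfamily and an uncharacterised locus.

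CYP27A1, the mitochondrial sterol side-chain hydroxylase of bile acid synthesis, was the P450 gene that fell. It read 316 and 401 in control and 228 and 173 after knockdown, so the knockdown mean was 56.0% of the control mean. On the log2 scale this is a change of -0.84 (SE 0.18, adjusted p = 0.0122, limma; 95% interval -1.23 to -0.45). The call was lost without the second knockdown library, where the change was -0.64 (adjusted p = 0.0758, limma), and without the filter on low genes (adjusted p = 0.0858, limma). The gene lies on chromosome 2 between TTLL4 and WNT6, whose log2 fold changes of -0.25 and 0.23 were not called.

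CYP1B1, a hydroxylase of oestrogens and of polycyclic hydrocarbons, rose from 25.0 and 48.6 to 86.0 and 79.4. The groups did not overlap, but the control libraries differed from each other 1.95-fold. On the log2 scale this is a change of 1.22 (SE 0.33, adjusted p = 0.0353, limma; 95% interval 0.49 to 1.95). The call was lost without the first control library (0.75, adjusted p = 0.0907, limma), without the first knockdown library (1.16, adjusted p = 0.154, limma) and without the second (1.28, adjusted p = 0.121, limma). Its neighbours RMDN2 and ATL2 on chromosome 2 had log2 fold changes of 0.034 and -0.17 and were not called.

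**Figure D2:**
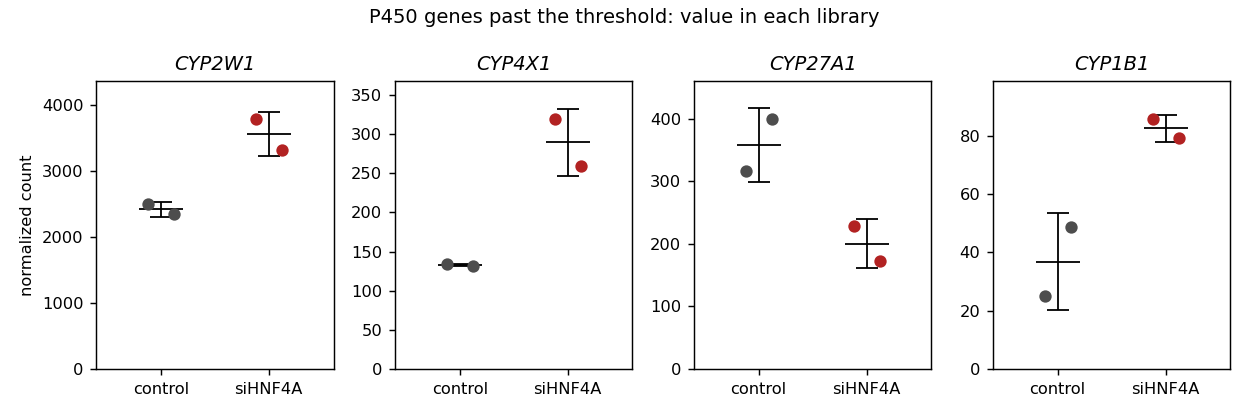
Normalized counts of the 4 called P450 genes in each library (points), with the mean and SD of each group (lines, n = 2), on axes that start at 0. In each panel both knockdown points lie on the same side of both control points, and the control points of CYP1B1 spread 1.95-fold.

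The promoters of 3 called genes are shown because they carry or lack short letters known from binding motifs. Each covers 250 bases before to 50 bases after a RefSeq start (GRCh38.p14) and is written along the gene, and capitals mark AGTCCA, the core of the HNF4 motif, or GCGTG, the core bound by the aryl hydrocarbon receptor AHR, on either strand. CYP2W1 has the AHR core at positions -144 and -50, CYP4X1 has the HNF4 core at -130 and the AHR core at -78 and -44, and CYP27A1 has neither. CYP4X1 has another RefSeq start, whose window (chr1:46961114-46961413) is not printed and has the HNF4 core at -163. No promoter of CYP1B1 was in the table used. The windows are chr7:982931-983230 for CYP2W1, chr1:47023419-47023718 for CYP4X1 and chr2:218781897-218782196 for CYP27A1, all on the plus strand.
CYP2W1: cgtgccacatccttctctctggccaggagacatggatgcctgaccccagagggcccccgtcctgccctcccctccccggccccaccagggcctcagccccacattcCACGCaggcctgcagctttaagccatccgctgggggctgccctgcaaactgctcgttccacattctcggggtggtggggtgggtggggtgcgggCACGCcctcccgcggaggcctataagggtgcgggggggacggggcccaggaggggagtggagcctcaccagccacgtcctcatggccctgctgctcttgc
CYP4X1: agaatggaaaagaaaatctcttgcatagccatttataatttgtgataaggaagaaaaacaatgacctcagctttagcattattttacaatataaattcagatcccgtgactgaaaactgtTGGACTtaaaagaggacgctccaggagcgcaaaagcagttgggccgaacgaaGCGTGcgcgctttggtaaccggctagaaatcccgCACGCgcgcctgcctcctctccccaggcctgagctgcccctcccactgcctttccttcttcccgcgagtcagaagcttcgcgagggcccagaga
CYP27A1: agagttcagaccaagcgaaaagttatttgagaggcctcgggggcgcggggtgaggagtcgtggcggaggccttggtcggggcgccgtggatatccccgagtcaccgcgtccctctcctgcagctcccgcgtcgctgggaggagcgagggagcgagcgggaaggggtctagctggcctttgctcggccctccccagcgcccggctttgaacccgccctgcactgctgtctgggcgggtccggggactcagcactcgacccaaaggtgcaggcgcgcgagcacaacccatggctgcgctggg

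Among the enzymes of foreign compounds, 15 genes were in the table and 9 were tested. CYP1B1 was the 1 called, 4 genes were apart upward and 2 downward, and the median log2 fold change was 0.34. The shares are 11.1% called, 44.4% apart upward and 22.2% apart downward, against 14.1%, 26.9% and 30.1% of all tested genes. CYP1A1, the classical target of AHR, read 198 and 337 in control and 293 and 392 after knockdown. Its groups overlapped, since the control libraries differed 1.70-fold, and the log2 fold change of 0.39 was not called (adjusted p = 0.305, limma). Without the second control library it became a call, at 0.77 (adjusted p = 0.0081, limma). CYP1A2, its neighbour on chromosome 15, read 6.11 and 7.78 in control and 15.3 and 12.1 after knockdown (0.89, adjusted p = 0.283, limma), and passed the filter through the knockdown libraries. The sum of the 3 CYP1 genes was 311 ± 116 in control and 439 ± 63.0 after knockdown (SD, n = 2), with the lowest knockdown sum at 394 and the highest control sum at 393.

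The second control library read higher than the first for several genes that AHR is known to regulate. ALDH3A1, an aldehyde dehydrogenase, read 105 and 171 in control and 148 and 195 after knockdown. AHRR, the repressor of AHR, read 27.2 and 47.3 in control and 63.1 and 28.7 after knockdown. The part of this spread in the CYP1 values was not tested. AHR itself was nearly level, at 1538 and 1582 in control and 1424 and 1602 after knockdown, with a log2 fold change of -0.047 (adjusted p = 0.758, limma). Of the 8 tested genes of the AHR battery, 2 (25%) fell, against 8.11% of all tested genes. NQO1, a quinone reductase, went from 9701 and 10466 to 7428 and 7708 (-0.41, adjusted p = 0.0019, limma), and SLC7A5, an amino acid carrier, changed by -0.20 (adjusted p = 0.0482, limma). The call of SLC7A5 was lost with equal library sums (adjusted p = 0.0764, limma), with quantile normalization (0.0974) and without the second control library (0.191) or either knockdown library (0.131 and 0.236). The battery's median was -0.037. UGT1A6 (0.10, and 0.18 with an adjusted p of 0.0276 in limma after quantile normalization), NFE2L2 (-0.090) and TIPARP (-0.069) were not called as deposited.

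CYP3A5, a drug oxidase found in gut as well as in liver, read 100.5 and 91.8 in control and 155 and 125 after knockdown. Its groups were apart, and the log2 fold change of 0.53 was not called (adjusted p = 0.106, limma; 95% interval 0.092 to 0.97). The gene overlaps ZSCAN25 on chromosome 7, which read 509.7 and 544 in control and 453 and 537 after knockdown. The other CYP3A genes, CYP3A4, CYP3A7 and CYP3A43, stayed between 2.02 and 5.51 in every library. These genes are similar in sequence and could share reads, so their sum is given too, 105 ± 3.75 in control and 151 ± 22.0 after knockdown (SD, n = 2).

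CYP2B6, which metabolises cyclophosphamide and is a target of the receptor NR1I3 in liver, had the lowest fold change of the tested P450 genes. It read 34.9 and 60.1 in control and 27.8 and 20.0 after knockdown, a log2 fold change of -0.93 that was not called (adjusted p = 0.126, limma). Without the first control library it was called, at -1.31 (adjusted p = 0.0311, limma). CYP2E1, the ethanol oxidase, read 162 and 145 in control and 123 and 126 after knockdown. Its groups were apart by little, and the change of -0.30 was not called (adjusted p = 0.283, limma). CYP2C19 (0.21) and CYP2D6 (-0.12) were not called, with values between 12.2 and 23.4. CYP2A6, CYP2C18 and CYP2F1 were under the filter, at most 4.89 in any library.

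Of the 11 genes for fatty acid and eicosanoid oxidation, 6 were tested and limma called 0 of them, with 2 at an unadjusted p under 0.05 (CYP4F11 and CYP2U1). The knockdown libraries lay below both controls for 5 of the 6 (83.3%, against 30.1% of all tested genes), and the median log2 fold change was -0.28. CYP4F12, counted among the 5, had a mean of 17.6 in control and 9.95 after knockdown. It passed the filter at a mean of 10 through the control libraries, where it is high, so this share is given as a description. CYP4F11, a fatty acid hydroxylase, read 695 and 743 in control and 607 and 626 after knockdown (-0.22, adjusted p = 0.162, limma). CYP4F3, a leukotriene hydroxylase, read 617 and 608 in control and 542 and 569 after knockdown (-0.14, adjusted p = 0.390, limma). For both the groups were apart and the shift was small.

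CYP2U1, a hydroxylase of long-chain fatty acids, read 194 and 155 in control and 115 and 143 after knockdown (-0.43, adjusted p = 0.168, limma). CYP4F12 (-0.85) and CYP4V2 (-0.33), a fatty acid hydroxylase of the retina among other tissues, were also apart downward and not called. CYP2J2, an arachidonic acid epoxygenase, was the exception to this direction. It read 359 and 385 in control and 401 and 360.2 after knockdown, a log2 fold change of 0.032 with a 95% interval of -0.24 to 0.30.

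All CYP4 genes in the table but CYP4V2, which lies on chromosome 4, stand in a row on chromosome 1 or on chromosome 19, and the summed values of these rows went different ways. The 5 genes on chromosome 1, in the order CYP4B1, CYP4A11, CYP4X1, CYP4Z1 and CYP4A22, summed to 143 ± 0.94 in control and 314 ± 39.6 after knockdown (SD, n = 2), most of it from CYP4X1. CYP4Z1, known from breast tissue, read 1.89 and 2.58 in control and 11.1 and 5.50 after knockdown. CYP4A22 read 2.21 and 0 in control and 4.07 and 6.81 after knockdown, and CYP4B1 read 3.07 and 5.14 against 5.22 and 14.1. These 3 lay apart upward, CYP4B1 only by 5.22 against 5.14, while CYP4A11, between 0 and 4.18, did not. Of all tested genes 26.9% were apart upward, and no such share is given for genes under the filter. All genes of this row but CYP4X1 were under the filter. In a fit without it CYP4Z1 (1.46, adjusted p = 0.286, limma), CYP4A22 (adjusted p = 0.303, limma) and CYP4B1 (0.95, adjusted p = 0.533, limma) were not called. The controls had more genes listed at 0, as given above. PDZK1IP1, the next tested gene beyond CYP4A22, rose from 328 and 361 to 533 and 453 (0.51, adjusted p = 0.0253, limma). EFCAB14, before CYP4B1 at the other end of the row, was not called, at 0.057.

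On chromosome 19 the 5 genes CYP4F8, CYP4F3, CYP4F12, CYP4F2 and CYP4F11 summed to 1365 ± 22.9 in control and 1192 ± 27.6 after knockdown (SD, n = 2). CYP4F8 read 15.0 and 7.52 in control and 6.59 and 6.61 after knockdown, and CYP4F2 stayed between 2.61 and 6.33, both under the filter. The pseudogene CYP4F23P read 33.6 and 9.29 in control and 4.11 and 3.85 after knockdown (adjusted p = 0.0815, limma), and passed the filter through the control libraries. Reads of such similar copies may have been split among them by the counting. TPM4, the tropomyosin gene beside CYP4F11, rose from 2857 and 2555 to 4548 and 4811 (0.79, adjusted p = 2.12e-04, limma). The difference between the rows was not tested.

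**Figure D3:**
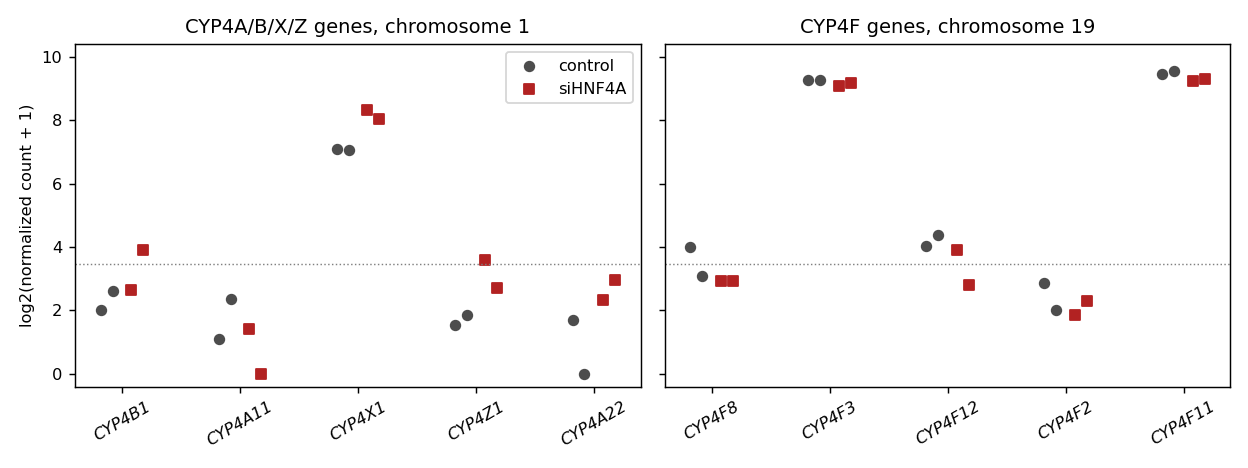
Log2(normalized count + 1) of the CYP4 genes in chromosome order in the 2 control (circles) and 2 knockdown libraries (squares); the dotted line marks 10 normalized counts. CYP4X1 stands above the line with both squares over both circles, and CYP4F3 and CYP4F11 have their squares slightly under their circles.

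Of the 6 sterol and bile acid enzymes, 3 were tested and all 3 lay apart downward, against 30.1% of all tested genes. CYP27A1 was the 1 called (33.3%, against 14.1%). CYP51A1, the lanosterol demethylase of cholesterol synthesis, read 1742 and 1835 in control and 1525 and 1636 after knockdown (-0.18, adjusted p = 0.156, limma). CYP46A1, the cholesterol hydroxylase best known from neurons, read between 73.5 and 81.6 in control and between 58.6 and 64.8 after knockdown (-0.32, adjusted p = 0.392, limma). CYP8B1, the sterol hydroxylase of cholic acid synthesis, read 3.67 and 3.34 in control and was listed at 0 in both knockdown libraries. It was under the filter, and without the filter its adjusted p was 0.113 in limma. CYP39A1 read 5.41 and 3.94 in control and 14.8 and 3.59 after knockdown. CYP7A1, the rate-limiting enzyme of classical bile acid synthesis, was the gene listed at 0 throughout.

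The other enzymes around these steps did not share 1 direction. Of 23 tested genes of cholesterol synthesis and its feedback, 3 rose and 3 fell, with a median of -0.050. These 6 calls are 26.1% of the list, against 14.1% of all tested genes, and between 2 and 5 were made when 1 library was left out. INSIG1, which retains the sterol sensor, rose from 2429 and 2496 to 3609 and 3254 (0.48, adjusted p = 0.0026, limma), MVD rose by 0.69 and SC5D by 0.37 on the log2 scale. MSMO1 (-0.29), SQLE (-0.23) and EBP (-0.33) fell, and these 3 and SC5D act in the sterol branch like CYP51A1. INSIG1 was called whichever library was left out. SQLE was lost in all 4 such fits (adjusted p from 0.0585 to 0.200, limma), MSMO1 in 3 (0.0588 to 0.105), EBP without the second control (0.0977) or second knockdown library (0.246), MVD without the first knockdown library (0.0619) and SC5D without the second (0.0975). SQLE and EBP were also lost with equal library sums (0.0721 and 0.0662) and quantile normalization (0.0725 and 0.0757). Of 9 tested bile acid enzymes outside the P450 family 1 was called (11.1%). AMACR, the racemase of the side-chain branch, rose from 1795 and 1715 to 2578 and 2254 (0.46, adjusted p = 0.0060, limma). SLC27A2 (-0.31), BAAT (-0.50), AKR1C4 (0.16) and SLC27A5 (0.43) were not called, and the list's median was -0.073.

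The vitamin D enzymes were not called. CYP2R1, which makes the circulating form, read 308 and 251 in control and 277 and 315 after knockdown, with overlapping groups (0.085, adjusted p = 0.754, limma). CYP27B1, which makes the active hormone, ranged from 20.3 to 37.0 over the 4 libraries (0.11, adjusted p = 0.886, limma). The vitamin D receptor VDR fell from 1805 and 2027 to 1247 and 1346 (-0.56, adjusted p = 0.0028, limma). Of the steroid hormone enzymes only CYP19A1, the aromatase, was tested, between 8.17 and 14.9 and not called (0.31). CYP17A1 and CYP21A2 stayed at or under 2.61.

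Among the retinoic acid enzymes CYP2S1, an enzyme of epithelia placed here for its reported action on retinoic acid, was the 1 tested. It read 124 and 137 in control and 171 and 183 after knockdown, and both knockdown values were higher than both controls. The log2 fold change of 0.45 was not called (adjusted p = 0.110, limma; 95% interval 0.072 to 0.82). CYP26B1, which degrades retinoic acid, read 12.8 and 7.37 in control and 1.17 and 3.30 after knockdown. It was under the filter, and without the filter the change was -1.82 (adjusted p = 0.219, limma). CYP26A1 was listed at 0 in both controls and read 0.93 and 2.94 after knockdown, and CYP26C1 reached 1.79 in 1 library. Of 9 tested genes of retinoid handling, DHRS3, a retinaldehyde reductase, was the 1 called (11.1%, against 14.1% of all tested genes). It read 563 and 572 in control and 747 and 699 after knockdown (0.35, adjusted p = 0.0401, limma), and its call was lost in each of the 4 fits that left out a library (adjusted p from 0.068 to 0.203). ALDH1A3 (0.23), RBP2 (-0.97) and RDH10 (0.098) were not called.

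The remaining little-known enzymes showed no call. CYP20A1 read 441 and 517 in control and 423 and 457 after knockdown (-0.12, adjusted p = 0.568, limma). CYP27C1 ranged from 8.60 to 15.8 with overlapping groups (0.33).

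The proteins that feed P450 enzymes were examined next. Of 13 tested electron partners 1 rose and 1 fell, with a median of 0.0036. These calls are 15.4% of the list, against 14.1% of all tested genes, and both were lost without the second control library or either knockdown library. CYB5R1, a cytochrome b5 reductase, rose from 401 and 368 to 511 and 557 (0.47, adjusted p = 0.0225, limma), and CYB5B, the mitochondrial cytochrome b5, fell from 4349 and 4577 to 3818 and 3857 (-0.22, adjusted p = 0.0401, limma). In those 3 fits the adjusted p ran from 0.059 to 0.142 for CYB5R1 and from 0.148 to 0.173 for CYB5B. CYB5B was also lost with equal library sums (0.0648) and quantile normalization (0.078). POR, the common reductase, read 2969 and 2605 in control and 2559 and 2469.8 after knockdown and was not called (-0.15, adjusted p = 0.248, limma). NENF (0.26, and called at 0.30 with equal library sums and 0.31 with quantile normalization), FDX1 (-0.19), the mitochondrial ferredoxin, and CYB5A (-0.20) were not called as deposited.

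Haem synthesis and breakdown had 16 tested genes, of which 1 rose and 2 fell (18.8%, against 14.1% of all tested genes), with a median of -0.16. Leaving out 1 library gave between 0 and 5 calls. FECH, which inserts the iron in the last step, rose from 278 and 314 to 444 and 507 (0.68, adjusted p = 0.0075, limma). UROS, an earlier enzyme of the pathway, fell from 453 and 458 to 331 and 315 (-0.49, adjusted p = 0.0188, limma), and SLC25A39, a mitochondrial carrier, fell by 0.30 on the log2 scale (adjusted p = 0.0135, limma). All 3 were lost without the second knockdown library (adjusted p = 0.0662 for FECH, 0.0991 for UROS and 0.0826 for SLC25A39, limma), and UROS and SLC25A39 also without the first (0.0613 and 0.0603). ALAS1, the rate-limiting enzyme of synthesis, was not called at -0.24, and was called at -0.36 without the first control library (adjusted p = 0.0192, limma).

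Of 38 regulators of P450 genes in the list, 32 were tested, 3 rose and 3 fell, and the median was -0.0050. These calls are 18.8% of the list, against 14.1% of all tested genes, and leaving out 1 library gave between 2 and 7. Besides VDR, ESRRA fell from 1638 and 1691 to 1293 and 1225 (-0.40, adjusted p = 0.0078, limma). PROX1, a partner of HNF4A in liver, rose from 29.4 and 37.5 to 75.7 and 100.4 (1.37, adjusted p = 0.0104, limma). RXRB, a partner of many nuclear receptors, rose by 0.49 (adjusted p = 0.0059, limma) and FOXA3 by 0.52 (adjusted p = 0.0270, limma) on the log2 scale. VDR and RXRB were called whichever library was left out. ESRRA and PROX1 were lost without the second knockdown library (adjusted p = 0.0588 and 0.105, limma), and FOXA3 without the first control library or either knockdown library (0.0901 to 0.110). GATA4 was at -0.45 and not called (adjusted p = 0.0709, limma). NR1I3, the receptor known for control of CYP2B6, was near the filter, between 11.0 and 13.1, and NR1I2, known for control of CYP3A4, reached at most 1.11. Also tested and not called were ARNT (-0.091), RXRA (0.096), AHR, AHRR, TIPARP, NFE2L2, NR2F2, RARA, RARG, FOXA1, FOXA2, SREBF1, SREBF2, NR5A2, PPARA, PPARD, PPARG, CEBPA, CEBPB, NR1H2, NR1H3, NR0B2 and GATA6.

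Other enzymes of foreign compounds had 22 tested genes, of which 3 rose and 1 fell (18.2%, against 14.1% of all tested genes), with a median of 0.030. Leaving out 1 library gave between 2 and 5 calls. MAOA, a monoamine oxidase, rose from 1574 and 1585 to 2631 and 2559 (0.72, adjusted p = 2.57e-04, limma). The aldo-keto reductases AKR1C2 (0.71, adjusted p = 0.0016, limma) and AKR1C1 (0.43, adjusted p = 0.0117, limma) rose, and these similar genes could share reads. EPHX2, the soluble epoxide hydrolase that acts on products of P450 epoxygenases, fell from 561 and 603 to 405 and 390.2 (-0.55, adjusted p = 0.0091, limma). Without the second knockdown library AKR1C1 (adjusted p = 0.0795, limma) and EPHX2 (0.0539) were lost. XDH was not called at -0.60, and was called at -0.88 without the first knockdown library (adjusted p = 0.0397, limma).

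Promoter sequences were then searched for short letters, as a description with no test. RefSeq promoters (GRCh38.p14, the same window as above) were at hand for 34 of the 46 P450 genes. Both strands were read, and the longer HNF4 motif CAAAGTCCA contains the core AGTCCA, so the 2 counts overlap. The HNF4 core was in 14 of the 34 P450 genes (41.2%), against 14.2% of all 27305 genes with a promoter. The longer motif was in 3 of 34 (8.82%), against 0.472%. A direct repeat of AGGTCA spaced by 1 base was in 0 of 34, against 0.0293%. The AHR core GCGTG was in 10 of 34 (29.4%), against 40.6% of all genes. These genes are not all independent, since CYP3A4, CYP3A5 and CYP3A7 hold the HNF4 core in a nearly identical stretch of bases. A gene counted if any of its promoters held the letters, with 47 promoters for the 34 P450 genes and 35116 for all 27305 genes. P450 promoters also differed in base composition, with a median GC content of 55% and a median of 6 CpG pairs, against 58.7% and 14 in all promoters, and the part of this in the motif shares was not tested.

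The 3 genes with the longer motif are shown, with the motif in capitals, because their values took different courses. CYP2A6 was under the filter, CYP2B6 was lower after knockdown without being called, and CYP2R1 overlapped between groups. Each sequence runs along its gene, which is on the minus strand for CYP2A6 (chr19:40850480-40850518) and CYP2R1 (chr11:14892374-14892412) and on the plus strand for CYP2B6 (chr19:40991036-40991074). The motif begins at -56, -231 and -166 from the RefSeq start in CYP2A6, CYP2B6 and CYP2R1, and in CYP2B6 it lies on the reverse strand.
CYP2A6: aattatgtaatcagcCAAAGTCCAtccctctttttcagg
CYP2B6: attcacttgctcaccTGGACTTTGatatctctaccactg
CYP2R1: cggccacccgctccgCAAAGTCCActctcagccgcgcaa

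Of the tested P450 genes with a promoter, 8 held the HNF4 core and 12 did not. The 8 with the core were split evenly, with CYP19A1, CYP2R1, CYP3A5 and CYP4X1 above 0 in log2 fold change and CYP2B6, CYP2E1, CYP4F11 and CYP4F3 below. Of the 12 without it 7 were above and 5 below 0. CYP4X1 was the called gene with the core, and CYP2W1 and CYP27A1 were called without it. Promoters with and without these letters thus both belonged to genes on either side of 0.

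**Figure D4:**
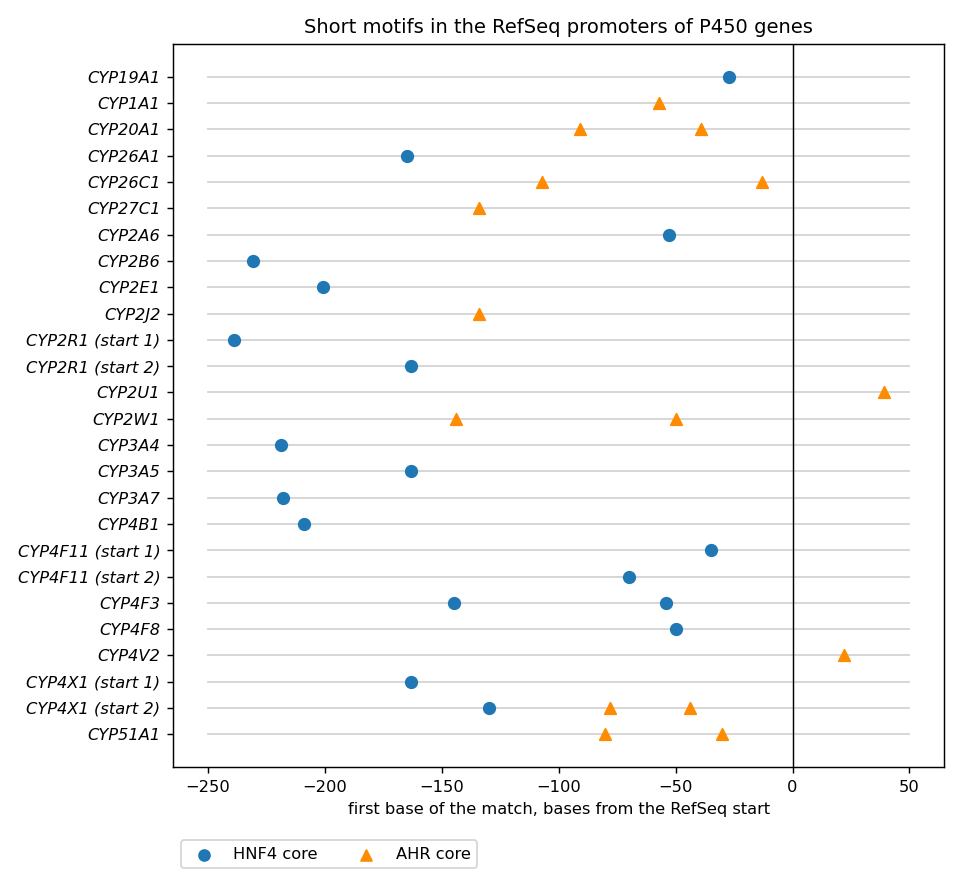
Position of the HNF4 core AGTCCA (circles) and of the AHR core GCGTG (triangles), on either strand, in the promoters of P450 genes that hold at least 1 of them, in bases from the RefSeq start at 0. CYP4X1 holds both kinds in the window of its second start, CYP2W1 holds the AHR core at -144 and -50, and the 14 genes with the HNF4 core hold it upstream of the start.

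Genes next to the tested P450 genes were compared as a local reference. Of 41 tested neighbours outside the family rule, 5 were called (12.2%), 3 of them higher and 2 lower, close to the 14.1% of all tested genes. The 41 include the pseudogene CYP4F23P and the antisense transcript CYP4A22-AS1. PDZK1IP1 is not among them, since the P450 genes it lies next to were under the filter. CSK, a tyrosine kinase gene beside the CYP1A pair on chromosome 15, rose from 3496 and 3675 to 5324 and 5295 (0.57, adjusted p = 4.56e-04, limma). EDC3, on the other side of that pair, rose from 1849 and 1775 to 2319 in both knockdown libraries (0.36, adjusted p = 0.0085, limma). CYP1A1 and CYP1A2, which lie between them, were not called. The other called neighbours were TPM4, given above, CDK4 and HADH.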

How the data were processed

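The RNA-seq table holds, per gene symbol, a normalized count for each library, a signal value that the authors deposited after normalizing their read counts. Its values are fractional, and the normalization, annotation and strand setting are not given in the sources used here. The submitters' processing notes name Bowtie, Bowtie2, Trim Galore, Picard, MACS2 and the build hg19, without saying which made the table. No reads could be recovered, so no count model or counting interval is given.

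Values were compared as log2(normalized count + 1) with limma 3.58.1 in R 4.3.3 (lmFit, eBayes with an intensity trend, no block). Genes with a mean of at least 10 were tested, Benjamini-Hochberg adjustment ran over all of them, and an adjusted p under 0.05 made a gene a call. An exact permutation test of 2 against 2 libraries cannot go below p = 0.333, so each call rests on the spread pooled across genes. The labels do not state whether the libraries came from separate cultures, so the p-values measure the spread between these libraries, which may be technical. The fitting code was checked on simulated data.

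Every called P450 gene, and every tested one that changed by 1 or more on the log2 scale or had a mean of at least 100, is given by library. The other lists give their called genes, up to 5 with the smallest p, and every tested regulator. Single values of some genes are not reported here, and these genes stay in the counts and medians. The members and lists were chosen with earlier results of these data known. The alternatives were other pseudocounts, filters, scalings and limma settings, the replicate block, and leaving out each library.

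Promoters, gene order and overlaps come from RefSeq (GRCh38.p14). The peak lists and chromosome contact libraries were not used here. Levels per coding length and a search for the haem-binding signature of the proteins had been planned and were not run, because no protein sequences were used here.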

Additional observations from a re-analysis of the deposited data

How the results depend on the processing

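CYP2W1 and CYP4X1 were called in every fit that left out 1 library, while CYP27A1 and CYP1B1 were not. Without the filter on low genes 2 P450 genes were called (CYP1B1 and CYP27A1 were lost, adjusted p = 0.156 and 0.0858, limma), and 726 of all genes. That fit called 0 genes in each of the electron partner, haem, bile acid and retinoid lists, with AMACR at an adjusted p of 0.0547 (limma). It called 3 regulators, 1 gene of cholesterol synthesis and 1 of the AHR battery. Without the intensity trend limma called 0 P450 genes, with 9 of 26 at an unadjusted p under 0.05, and 0 of all genes, with 3524 at an unadjusted p under 0.05, and HNF4A at -1.97 had an adjusted p of 0.0919. With a change of 1 or more on the log2 scale also required, 2 P450 genes and 225 genes (135 higher, 90 lower) were left. With quantile normalization CYP1B1 was lost (1.13, adjusted p = 0.0596, limma). The split of all called genes, 938 higher and 1264 lower as deposited, became 1031 and 1027 with quantile normalization and 1136 and 1010 with equal library sums. Quantile normalization also turned uncalled values of CYP27B1 (-0.0058), AHR (0.0036) and NR1I3 (-0.074). The causes were not tested.

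Leaving out 1 library gave between 2 and 5 P450 calls and between 1013 and 2449 calls over all genes, on the assumption that the lone library varied like the other group. The fewest calls, 1101 and 1013, came without the first and the second knockdown library. It turned the sign of uncalled log2 fold changes, which ranged from -0.061 to 0.72 for CYP27C1, -0.24 to 0.00093 for CYP2D6, -0.045 to 0.11 for CYP2J2, -0.063 to 0.49 for CYP2C19, -0.061 to 0.23 for CYP2R1 and -0.31 to 0.53 for CYP27B1. The ranges were -0.31 to 0.80 for AHRR, -0.0055 to 0.69 for ALDH3A1, -0.18 to 0.00024 for ARNT, -0.13 to 0.039 for AHR, -0.0074 to 0.22 for NR1I3 and -0.26 to 0.12 for TIPARP.

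Deviations from the group means were nearly uncorrelated between libraries of 1 number (r = -0.019 over 15577 genes). Whether libraries of 1 number shared a culture or batch is not in the labels and was not tested. With the replicate block 4 P450 genes were called, the same 4, and 2428 genes in all, and the HNF4A change stayed at -1.97. The block lost the calls of SLC7A5 (adjusted p = 0.0581, limma) and SQLE (0.0547). The search of only the 250 bases before the start found the HNF4 core in the same number of P450 promoters, 14. The filter at a mean of 10 left out 19 P450 genes with low values, and the number of reads behind them is unknown.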

Other observations

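Copies of P450 genes outside the family rule were mostly low. CYP2D7P, a relative of CYP2D6, read 13.4 and 9.57 in the control libraries and 20.9 and 14.7 in the knockdown libraries, and was not called (log2 fold change 0.59, adjusted p = 0.438, limma). CYP4F30P read 1.30 and 3.55 in control and 5.48 and 9.50 after knockdown, under the filter, the opposite order to that of CYP4F23P. These pseudogenes were chosen after their values were seen. CYP1B1-AS1, the antisense transcript named for CYP1B1, read 7.93 and 3.99 in control and 7.08 and 0 after knockdown, and CYP4A22-AS1, near the CYP4 row on chromosome 1, had a log2 fold change of -0.070 (adjusted p = 0.928, limma).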
